A study of Mus musculus with 15 samples.

Results

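The positive arm of the mouse circadian clock is carried by Arntl, which encodes BMAL1, by Clock and by Npas2, and these genes have 5 RefSeq transcripts among the 28167 transcripts counted in the liver libraries. The genes were chosen with earlier results of these data known, and all their transcripts, the members, were taken by gene symbol alone. They were Arntl NM_007489 and NM_001243048, Clock NM_007715 and NM_001289826, and Npas2 NM_008719. Ribosome-protected fragments, the stretches of mRNA shielded by ribosomes, were sequenced from whole liver of wild-type male C57BL/6N mice aged 8 to 10 weeks. The mice had been kept in cycles of 12 h light and 12 h dark and then in constant darkness for 24 h before the first sampling. Livers were taken every 4 h from CT0 to CT24, at 7 circadian times (CT), from 2 mice each, with no other treatment or genotype, so that time was the only variable. The sample names call the last pair CT24, while a label field gives CT00 for it, and the names were followed.

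BMAL1 is a transcription factor of the bHLH-PAS family that binds DNA as a dimer with CLOCK, and NPAS2 is a paralogue of CLOCK that can take its place. The dimers bind E-box elements and drive transcription of the Per and Cry repressors, of the REV-ERB receptors Nr1d1 and Nr1d2, and of output genes such as Dbp. REV-ERB receptors repress, and ROR receptors activate, genes with their response elements, of which Arntl is the classical example. In liver this loop sets daily rhythms of many metabolic genes.

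Each of the 14 libraries held between 40593197 and 90458783 counts (median 56446208). Deposited counts were raw, and levels below were scaled by trimmed mean of M values (TMM), with factors from 0.736 to 1.46. All nonzero counts (100%) of CT16 replicate 2 were even, and the library was also analysed with its counts halved. The 8 hepatocyte markers summed to between 37175 and 51643 CPM (the usual depth-scaled count), so the tissue carried its label. Markers of Kupffer, endothelial, stellate, bile duct and red cells were detected at far lower sums, between 11.04 and 145 CPM, and in each of these lists except that of the red cells the sums at CT0 and CT24 overlapped those at CT12. The 4 red cell markers with reads summed to 29.4 to 39.4 CPM at CT0 and CT24 and to 22.0 to 25.3 at CT12. In the edgeR rhythm fit given below, 1 of the 5 bile duct markers passed, against 11.3% of all genes tested. It was Sox9 (edgeR adjusted p 0.00580, peak at 0.114 h). The part of red cells and of bile duct cells in the results was not tested. Pancreatic acinar markers summed to 2097 CPM in CT20 replicate 2 and to at most 43.5 in the other libraries. Without CT20 replicate 2, the edgeR adjusted p for a rhythm was 8.94e-05 for Arntl NM_007489 and 2.42e-05 for Npas2, and 0.0495 and 0.0623 for Clock NM_001289826 and NM_007715.

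The isoforms of Arntl differ inside the transcript, and those of Clock at its first exon, as read from GRCm38.p6 with the NCBI annotation. Both Arntl transcripts run on the plus strand over chr7:113207465-113314126. NM_007489 has 20 exons, and NM_001243048 has 17 because it lacks exons 3 and 4, which are noncoding, and exon 6, which is coding. Exon 3 (chr7:113274626-113274753) and exon 4 (chr7:113279457-113279582) have 128 and 126 nt, and exon 6 (chr7:113283257-113283295) has 39 nt. The coding sequence (CDS) is 1881 nt in NM_007489 and 1842 nt in NM_001243048, so the reading frame is kept. The first pair of sequences below shows the mRNA at this cassette, with bases of exon 6 in capitals, and the third shows the same place in the isoform that skips it.
NM_007489 exons 5 and 6: tgccactgactaccaAGAAAGTATGGACAC
NM_007489 exons 6 and 7: TGACCCTCATGGAAGgttagaatatgcaga
NM_001243048 exons 3 and 4: tgccactgactaccagttagaatatgcaga

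Exons 3 and 4 also set which upstream open reading frames (uORFs) the 5′ untranslated region (5′UTR) of Arntl holds. An ATG counted as a uORF where its frame also closed at a stop before the CDS. The 5′UTR of NM_007489 has 520 nt and 4 such uORFs, of 72, 42, 21 and 33 nt. The uORF of 42 nt lies inside that of 72 nt, in the same frame and with the same stop. In NM_001243048, with 266 nt, the ATGs of this first pair remain in exon 2. Without exon 3 their shared frame runs on and ends 134 nt inside the CDS, out of frame with it. Its count of uORFs was therefore 0, with 2 ATGs in the same overlapping frame, 201 and 171 nt long to its stop. The sequences below give the ATGs that both isoforms share, the complete 21 nt uORF of exon 3 with its start and stop codons in capitals, and the first 30 nt of the uORF of exon 4.
First shared ATG, exon 2, chr7:113234643: cagtgaATGctt
Second shared ATG, exon 2, chr7:113234673: cttcaaATGtgg
uORF of exon 3, chr7:113274668-113274688: ATGaaagtcactttggggTGA
uORF of exon 4, chr7:113279457-113279489: ATGtgggaatttgggcccagagggtgggag

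Both Clock transcripts lie on the minus strand of chromosome 5, have 23 exons and share a CDS of 2568 nt. NM_001289826 begins with exon 1 at chr5:76304655-76304792 (138 nt) and NM_007715 with another at chr5:76304368-76304548 (181 nt). Their 5′UTRs of 345 and 388 nt share a uORF of 66 nt in exon 3 and 2 ATGs whose frames run into the CDS, the nearer of them 7 nt before the CDS start. NM_001289826 has a further overlapping ATG in its own exon 1, whose frame spans 339 nt. Npas2 NM_008719 has 21 exons on the plus strand at chr1:39194272-39363240, a CDS of 2451 nt and a 5′UTR of 496 nt with 1 uORF of 66 nt. The starts of the 3 coding sequences are shown with the start codon in capitals.
Arntl: accttccttccaATGgcggaccagaga
Clock: acataatgtgttATGgtgtttaccgta
Npas2: atagaaactctaATGgacgaagatgag

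Arntl gave the larger swing of the dimer partners that were read throughout the day. Its CDS level fell to 9.20% of its highest time-point mean at CT8 and to 5.74% at CT12. Levels are given as RPKM, that is CDS reads per kilobase at a common depth (TMM-scaled CPM per kilobase), of NM_007489. They were 3.67 and 4.26 in the CT0 libraries, 2.97 and 3.30 at CT4, 0.204 and 0.525 at CT8, 0.156 and 0.299 at CT12, 1.26 and 1.74 at CT16, 3.42 and 4.16 at CT20, and 3.98 and 3.03 at CT24. All 4 libraries of CT8 and CT12 lay below all others, and those of CT16 were intermediate. The pair at CT4 lay below those at CT0 and CT20 and overlapped that at CT24, and the pairs at CT0, CT20 and CT24 overlapped each other. The mean fell from 3.96 ± 0.413 (SD, n = 2) at CT0 to 0.228 ± 0.101 (SD, n = 2) at CT12, a 17.4-fold difference. With the library total as scale these means were 5.35 and 0.191 RPKM, a wider gap. NM_001243048 followed the same course, from 4.00 to 0.232, since nearly all of its coding reads are shared.

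**Figure D1:**
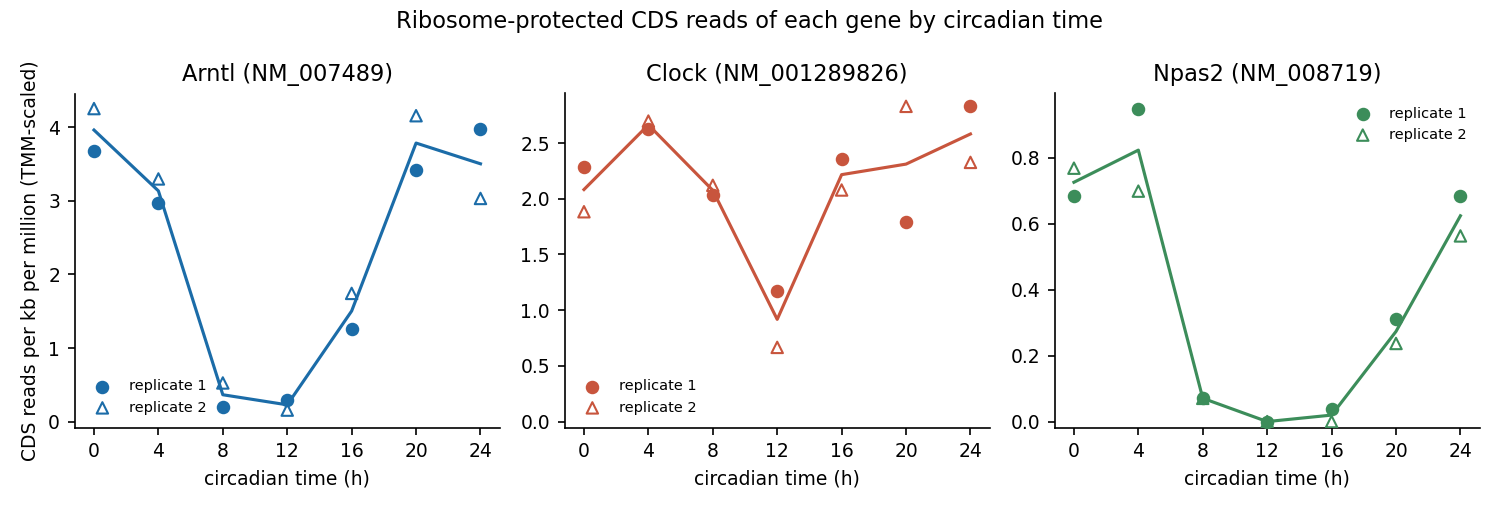
CDS level in RPKM (TMM-scaled) of Arntl, Clock and Npas2 against circadian time in hours, each panel on its own scale from 0. Circles and triangles are the libraries labelled replicate 1 and 2 and lines join their means; Arntl fell to 0.228 and Clock to 0.917 at CT12, where both Npas2 libraries held 0 reads.

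Clock was read at every time, with 1 low point at CT12. Its CDS level was 2.28 and 1.88 RPKM at CT0, 2.63 and 2.70 at CT4, 2.03 and 2.12 at CT8, 1.17 and 0.665 at CT12, 2.35 and 2.08 at CT16, 1.79 and 2.83 at CT20, and 2.84 and 2.33 at CT24. The pair at CT12 lay below the other 12 libraries, and the pair at CT4 lay above those at CT0, CT8 and CT16. The highest mean, at CT4, was 2.90 times the lowest. With the library total in place of TMM the highest mean moved to CT0, at 2.85 RPKM, and the lowest stayed at CT12, at 0.768. The values hold for both isoforms, because their CDS counts were identical in 14 of 14 libraries.

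Npas2 was the least read of the 3 genes and lost its reads completely. Its level was 0.683 and 0.768 RPKM at CT0, 0.947 and 0.699 at CT4, 0.0709 and 0.0704 at CT8, 0 and 0 at CT12, 0.0393 and 0 at CT16, 0.310 and 0.237 at CT20, and 0.685 and 0.563 at CT24. Libraries of CT0, CT4 and CT24 lay above those of CT20, which lay above those of CT8, CT12 and CT16. In reads, the CDS held 151 and 91 at CT4 against 0 in 3 libraries, both of CT12 and replicate 2 of CT16. Taking the floor as 3 counts in each CT12 library, the mean at CT0 and CT24 of 1.68 ± 0.211 CPM (SD, n = 4) was at least 37.6-fold higher than at CT12. In whole liver, fewer cells with the mRNA and fewer ribosome-protected reads per cell cannot be told apart.

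The order of the genes by CDS reads per kilobase changed over the day for the first 2 of them. Npas2 was lowest in 14 of 14 libraries. Arntl exceeded Clock in both libraries at 4 times (CT0, CT4, CT20 and CT24) and lay below it in both at 3 times (CT8, CT12 and CT16). Averaged over the 14 libraries, Arntl NM_007489 had 2.36 RPKM and Clock 2.12, near the median of 2.29 over the transcripts tested, and Npas2 had 0.362, at the 13.9th percentile. The daily means of Arntl and Clock differed by less than the range of either over the day.

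**Figure D2:**
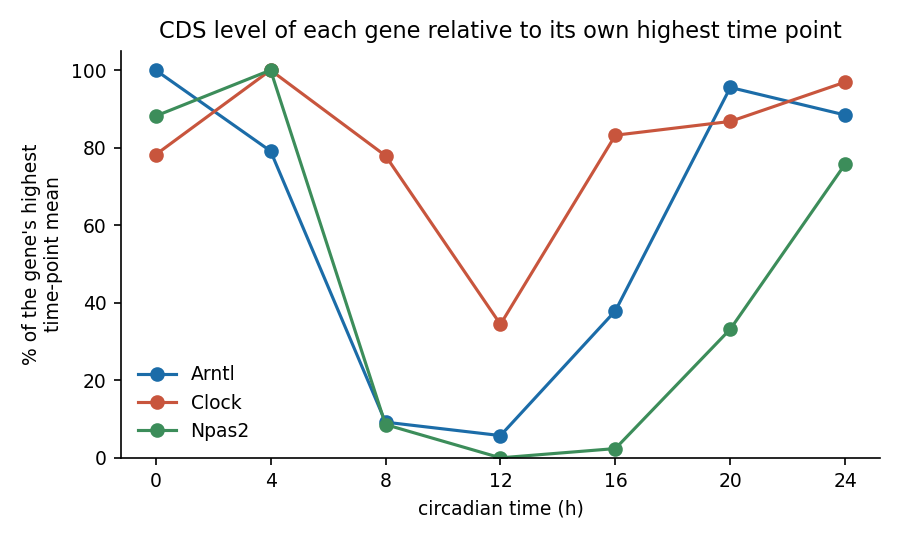
Mean CDS level at each circadian time (hours) as a percentage of the gene's own highest time-point mean, for Arntl, Clock and Npas2 (2 libraries per point). At CT20 Arntl stood at 95.5% and Npas2 at 33.2% of their highest mean, while Clock stayed at 77.9% or more outside CT12.

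Rhythms over the 24 h were tested in edgeR by a cosine fit to reads of the whole transcript, with p-values adjusted over 17299 transcripts, of which 11.3% were called. Arntl and Npas2 passed by a wide margin and Clock lay at the threshold of 0.05. The adjusted p was 6.26e-05 for both Arntl transcripts, with fitted peak-to-trough differences of 3.93 and 3.87 on the log2 scale. Npas2 gave 2.00e-05, and its fitted difference of 6.47 rests on libraries with 0 reads and is no measured fold. Clock NM_001289826 passed, at 0.0407 with a difference of 0.91, and NM_007715 did not, at 0.0504 with 0.86. These Clock transcripts share most of their reads, and a difference between them was not tested. With CDS reads alone, of which 10.8% of 17023 transcripts were called, Arntl kept its call at 4.87e-05, Npas2 at 1.72e-05, and Clock had 0.159. Without CT12 replicate 1 or 2, Clock NM_001289826 had 0.141 and 0.124, and without CT0 replicate 1, CT4 replicate 1 or 2, CT8 replicate 1 or CT24 replicate 1 between 0.0593 and 0.0845. NM_007715 passed without CT0 replicate 2, CT16 replicate 1 or CT20 replicate 1, at 0.0222 to 0.0472.

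The study's own test, JTK_CYCLE, a rank test against cosine curves, was run on CPM of the library total. At P under 0.05 after adjustment over lags, it called 17.6% of transcripts, and at a Benjamini-Hochberg q under 0.05 it called 1.47%. All 5 transcripts passed by P. Arntl had P of 0.000129 and 4.95e-05, Npas2 5.71e-05, and Clock 0.0201 for NM_007715 and 0.0126 for NM_001289826. By q, Arntl (0.0231 and 0.0157) and Npas2 (0.0157) remained past the threshold and Clock (0.184 and 0.150) did not. On the TMM scale, P for Clock NM_007715 was 0.193.

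The fitted peaks fell around subjective dawn. By least squares on log2 CPM, the peak was at 22.9 ± 0.540 h (SE, n = 14) for Arntl NM_007489, 0.193 ± 1.23 h for Clock NM_007715 and 1.19 ± 0.446 h for Npas2. When each library was left out in turn, the edgeR peak ranged from 22.6 to 23.3 h for Arntl and from 0.992 to 1.44 h for Npas2. The range for Clock NM_007715 was 23.6 to 0.80 h. With library totals as scale the edgeR peaks were at 22.8 h for Arntl NM_007489, 23.3 h for Clock NM_007715 and 1.08 h for Npas2, and JTK gave a lag of 0 h for both Arntl and Clock and 2 h for Npas2. The difference between peaks was not tested. At CT16 Arntl was at 37.9% and Npas2, with 6 and 0 reads, at 2.39% of its highest time-point mean.

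Dawn (the mean of CT0 and CT24) was compared with dusk (CT12) in an edgeR fit of the 7 times, and all 5 transcripts were higher at dawn. In all, 3.95% of transcripts were called higher at dawn and 3.79% lower. Arntl was higher by 4.19 (NM_007489, adjusted p 1.44e-06) and 4.09 (NM_001243048, 1.28e-06) on the log2 scale. Clock was higher by 1.24 (NM_007715, 6.80e-04) and 1.35 (NM_001289826, 3.16e-04). Npas2 passed at 3.87e-05, with the bound given above as its size. These calls held without any 1 of the 14 libraries, with adjusted p up to 0.0150 for Clock. With library totals as scale, 3539 transcripts were higher at dawn and 136 lower, against 684 and 656 with TMM, and the median over all transcripts moved from 0.0010 to 0.58. Under that scale Arntl NM_007489 was 4.75 and Clock NM_007715 1.82 higher at dawn on the log2 scale.

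Between CT24 and CT0, a day apart, no member was called. The edgeR fit called 0% of transcripts higher and 0% lower, with 873 at an unadjusted p under 0.05. Differences of CT24 from CT0 on the log2 scale were -0.13 and -0.18 for Arntl, 0.20 and 0.18 for Clock and -0.20 for Npas2, with adjusted p of at least 0.959.

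The steps of 4 h showed when each gene moved. From CT0 to CT4 no member was called (edgeR calls were 0.0231% higher and 0.341% lower), and the adjusted p was 0.936 or more. From CT4 to CT8 (0.399% higher, 0.335% lower, or 69 and 58 transcripts, against 33 and 43 with library totals as scale) Arntl fell by 3.00 (NM_007489, edgeR adjusted p 1.82e-04) and 2.98 (NM_001243048, 1.57e-04) on the log2 scale, and Npas2 fell by 3.41 (0.0193). The difference for Arntl NM_007489 ranged from -3.92 to -2.40 when each library was left out in turn. Clock differed by -0.53 and -0.48 and did not pass (0.619 and 0.687). The Npas2 call was lost without CT4 replicate 1 (0.180) or 2 (0.0919) or CT8 replicate 1 (0.296) or 2 (0.135), whereas Arntl stayed past the threshold, at 0.00426 or less.

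From CT8 to CT12 (1.08% higher, 0.636% lower, or 186 and 110 transcripts, against 64 and 21 with library totals) Clock and Npas2 were called. Clock fell by 0.90 (NM_007715, edgeR adjusted p 0.0469) and 1.02 (NM_001289826, 0.0215), and Npas2 went from 14 and 13 reads to 0 in both libraries (0.0232). Arntl differed by as much as Clock, -0.99 and -0.91, and did not pass (0.369 and 0.415). When each library was left out in turn, the difference ranged from -1.58 to -0.0576 for Arntl NM_007489. For Clock NM_007715 it ranged from -1.10 to -0.735. The calls were lost under several settings. With library totals as scale the adjusted p of Clock was 0.379 and 0.222. That of NM_001289826 was lost without CT8 replicate 1 or 2 or CT12 replicate 1 or 2 (0.0629 to 0.138), and that of NM_007715 without any library other than those of CT20 (0.0544 to 0.274). Npas2 lost its call without CT8 replicate 1 (0.103) or 2 (0.0929) or CT12 replicate 1 (0.184).

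From CT12 to CT16 (1.04% higher, 0.399% lower, or 180 and 69 transcripts, against 733 and 21 with library totals, which move the median of all transcripts to 0.49) Arntl rose by 2.81 (NM_007489, edgeR adjusted p 0.00109) and 2.76 (NM_001243048, 9.35e-04), and Clock by 1.10 (NM_007715, 0.0195) and 1.15 (NM_001289826, 0.0137). Npas2, with 6 and 0 reads at CT16, did not pass (0.229). Arntl kept its call without any 1 library, with adjusted p up to 0.0124. Clock NM_001289826 lost it without CT12 replicate 2 (0.0626) or CT16 replicate 1 (0.104), and NM_007715 without any 1 of the 4 libraries compared (0.0541 to 0.135). From CT16 to CT20 (0.139% higher, 0.225% lower) no member passed. Arntl differed by 1.40 and 1.39 (adjusted p 0.0952 and 0.0884), and Npas2 went from 6 and 0 to 32 and 37 reads (0.0545). Without CT8 replicate 1 or 2 both Arntl transcripts passed (0.0279 to 0.0315), and without CT12 replicate 1 or 2, CT16 replicate 1 or CT20 replicate 2 Npas2 passed (0.0347 to 0.0425). From CT20 to CT24 the edgeR fit called 0% in either direction, with 859 transcripts at an unadjusted p under 0.05, and the members had adjusted p of 0.974 or more.

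The balance of the partners was followed as log2 ratios of CDS reads per kilobase within each library, with 0.5 reads added. The Arntl to Clock ratio was 0.69 and 1.18 at CT0, 0.18 and 0.29 at CT4, -3.29 and -2.004 at CT8, -1.95 and -2.06 at CT12, -0.89 and -0.25 at CT16, 0.93 and 0.56 at CT20, and 0.49 and 0.38 at CT24. It was above 0 in all 8 libraries of CT20 to CT4 and below 0 in all 6 of CT8 to CT16. On average Arntl had 1.91 times the reads of Clock per kilobase at CT0, and Clock had 6.27 times those of Arntl at CT8. A cosine fit put its peak at 22.3 ± 0.516 h (SE, n = 14) with a peak-to-trough difference of 3.395, and its permutation p, two-sided, was 1e-05, the smallest that 100000 shuffles of the time labels can give.

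The Npas2 to Clock ratio stayed below 0 throughout. It was -1.74 and -1.29 at CT0, -1.47 and -1.94 at CT4, -4.79 and -4.85 at CT8, -5.79 in CT16 replicate 1 (from 6 reads of Npas2), -2.51 and -3.56 at CT20, and -2.04 in both libraries at CT24. At CT12 and in CT16 replicate 2 it is set by the added 0.5 reads and gives no size. Clock thus had 2.85 times the reads of Npas2 per kilobase at CT0, 28.3 times at CT8 and 55.3 times in CT16 replicate 1. Set against the sum of Clock and Npas2, Arntl was at 0.31 and 0.68 at CT0 and at 0.70 and 0.44 at CT20, but at -0.27 and -0.04 at CT4, where the reads of Npas2 were highest. Its lowest pair was -3.34 and -2.05 at CT8. Both ratios had a permutation p of 1e-05, and after Benjamini-Hochberg adjustment over the 3 ratios each p was still 1e-05. All 3 stayed past the threshold without any 1 library, with adjusted permutation p up to 2.2e-04.

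**Figure D3:**
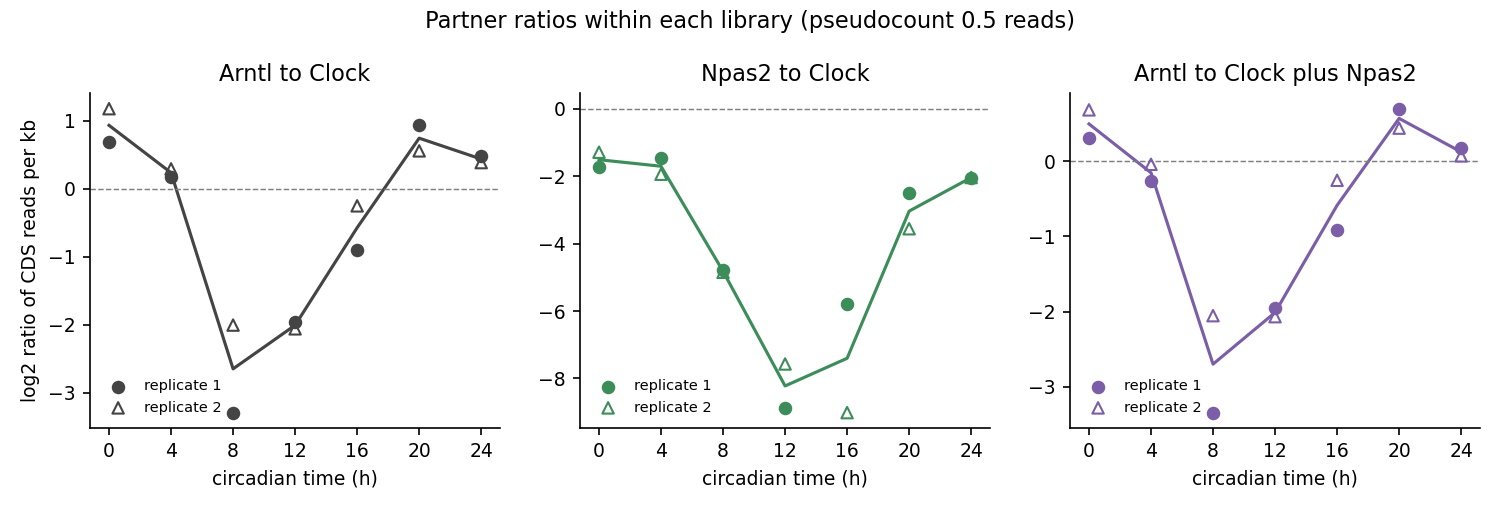
Log2 ratios of CDS reads per kilobase against circadian time in hours, for Arntl to Clock, Npas2 to Clock and Arntl to Clock plus Npas2, with 0.5 reads added and equality dashed. Points are single libraries and lines their means; Arntl to Clock crossed 0 between CT4 and CT8 and again between CT16 and CT20, and the Npas2 values at CT12 are set by the added reads.

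The genes also differed in how reads spread over the transcript, a description with no test. Summed over the libraries, Clock was read more densely in its 5′UTR than in its CDS, Arntl less densely, and Npas2 almost solely in its CDS. Over the 14 libraries, NM_007715 had a density of 255 reads per 100 nt before the start codon and 176 in the CDS, and NM_001289826 had 344 and 176. That is 1.45 and 1.95 times the CDS density. Arntl NM_007489 had 97.1 and 186 reads per 100 nt, and NM_001243048 119 and 187, or 0.523 and 0.636 times. The order did not hold at CT8, where the density in the 5′UTR was 0.708 times that in the CDS for Clock NM_007715 (0.331 and 1.16 in its libraries), 1.38 times for NM_001289826, 1.04 times for Arntl NM_007489 and 1.55 times for NM_001243048. With both libraries pooled, it was 1.21 times or more for Clock and 0.737 times or less for Arntl at the other times. Single libraries departed from this. The order was reversed for the Clock transcripts in CT20 replicate 2 (0.771 and 0.968 times) and for Arntl NM_001243048 in CT4 replicate 2 (1.20 times). Other libraries lay outside these bounds with the order kept. For Arntl they had 0.787 and 0.972 times (NM_001243048, CT0 and CT20 replicate 1) and 0.812 times (NM_007489, CT4 replicate 2). For Clock NM_007715 they had 1.19 and 1.16 times (CT4 and CT24 replicate 2). Npas2 had 6 reads before the start codon, from 3 libraries, and 720 in the CDS, a CDS density 24.1 times that of the 5′UTR. As a share of 5′UTR and CDS reads, the 5′UTR took 20.8% in Clock NM_001289826 (exact 95% interval 19.8% to 21.9%), 12.6% in Arntl NM_007489 (11.6% to 13.7%) and 0.826% in Npas2 (0.304% to 1.79%). The intervals cover counting error only. Over all 14 libraries the 3′UTRs held 14 reads in Arntl, 32 in the 6831 nt of Clock and 0 in Npas2.

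**Figure D4:**
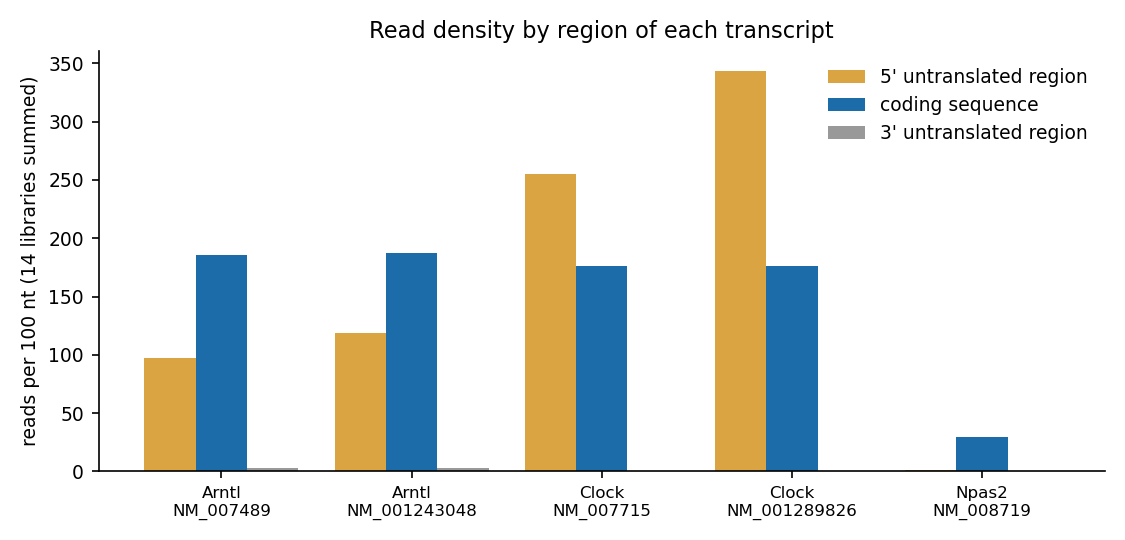
Reads per 100 nt, summed over 14 libraries, for each region of the 5 transcripts (5′UTR, CDS, 3′UTR), as bars from 0. The 5′UTR bars exceed the CDS bars in both Clock transcripts (255 and 344 against 176) and are near 0 in Npas2.

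Reads in the 5′UTR of Arntl were fewest at CT8 to CT16, as in the CDS, and 0 at CT12. NM_007489 had 66 and 47 reads there at CT0, 46 and 74 at CT4, 6 and 21 at CT8, 0 and 0 at CT12, 19 and 10 at CT16, 38 and 68 at CT20, and 62 and 52 at CT24. The 0 at CT12 stands beside 63 CDS reads, which allows a 5′UTR share of up to 4.76% when the limit is set at 3 counts, and of up to 5.69% by the exact 95% interval. The share of NM_007489 was 22.3% at CT8 (exact 95% interval 15.2% to 30.8%, from 121 reads) and between 8.45% and 14.7% at the times other than CT8 and CT12. In the edgeR fit of 5′UTR reads, which called 1.48% of 7697 transcripts, NM_007489 passed (adjusted p 0.0195, peak at 23.7 h) and NM_001243048 did not (0.119). The call was lost without CT8 replicate 1 (0.0621), CT12 replicate 2 (0.0604) or CT24 replicate 1 (0.0523).

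Clock kept reads in its 5′UTR at each time. NM_007715 had 117 and 87 at CT0, 151 and 66 at CT4, 21 and 61 at CT8, 47 and 62 at CT12, 74 and 56 at CT16, 65 and 51 at CT20, and 79 and 60 at CT24. These are unscaled reads of libraries that differ in depth. Neither Clock transcript passed in the 5′UTR (adjusted p 0.663 and 0.308), and Npas2 was below the minimum of a mean of 10 reads. The balance of 5′UTR and CDS reads, as a log2 ratio, was tested with limma, which called 0% of 7640 transcripts, with 377 at an unadjusted p under 0.05. Its adjusted p was 0.809 and 0.830 for Arntl and 0.940 and 0.958 for Clock, so a change of the balance between the regions over the day was not detectable here.

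Reads of the exons that only NM_007489 has were taken as its count minus that of NM_001243048, which holds only if a shared read was counted in full for both isoforms, and the sources used here do not state this. The count of NM_007489 was never the smaller one in the 14 libraries. By this difference, exons 3 and 4 took 20 and 22 reads at CT0, 30 and 17 at CT4, 0 and 6 at CT8, 0 and 0 at CT12, 6 and 2 at CT16, 0 and 29 at CT20, and 34 and 24 at CT24. CT20 replicate 1 is apart, with 0 reads there and 38 in the shared 5′UTR. The 190 reads of exons 3 and 4 came to 74.2 per 100 nt, against 119 in the shared 5′UTR. Exon 6 took 8 and 4 reads at CT0, 6 and 2 at CT4, none at CT8 and CT12, 1 and 2 at CT16, 0 and 12 at CT20, and 10 and 0 at CT24. Its 45 reads, or 112 per 100 nt, compare with 187 per 100 nt in the shared CDS. Exon 6 is hardly longer than a protected fragment, and no spliced alignment is named in the methods, so reads across its junctions may be missing. How many reads came from each isoform cannot be told apart in these counts.

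**Figure D5:**
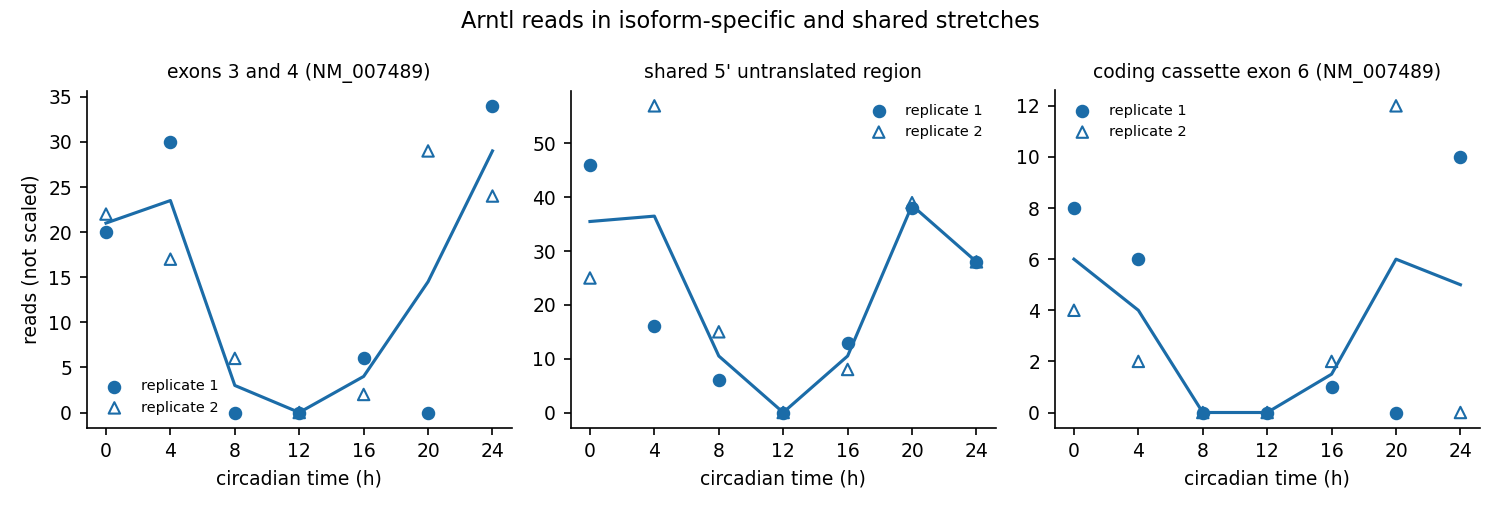
Unscaled reads against circadian time in hours in Arntl exons 3 and 4 and in the coding cassette exon 6 (count of NM_007489 minus that of NM_001243048), and in the 5′UTR that both isoforms share. Points are single libraries and lines their means; all 3 stretches held 0 reads in both CT12 libraries, and CT20 replicate 1 had 0 reads in both isoform-specific stretches and 38 in the shared one.

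The ratio between isoforms did not pass a cosine permutation test in any region. For the 5′UTR of Arntl the log2 ratio of NM_007489 to NM_001243048 had a median of 0.49 and a range of 0 to 1.49. Its permutation p was 0.0391, and 0.117 after Benjamini-Hochberg adjustment over 3 tests. Both CT12 libraries held 0 reads there for both isoforms, so their ratio of 0 in this test is set by the added 0.5 reads. For the CDS of Arntl the permutation p was 0.123 (adjusted 0.185). For the 5′UTR of Clock, NM_001289826 had more reads than NM_007715 in 12 libraries, the same in 1 and fewer in 1, with a permutation p of 0.424.

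Windows from 250 bases before to 50 after annotated start sites (RefSeq promoter sequences, GRCm38.p6) were searched on both strands for AGGTCA, the core word of REV-ERB and ROR elements, its longer form TAGGTCA and the variant TGGGTCA, as well as for the E-box word CACGTG and the D-box word TTATGNAA. All 3 genes matched the table, with 2 windows for Arntl, 3 for Clock and 1 for Npas2. The longer form, which contains the core word, was found in Arntl at chr7:113207541-113207547, inside exon 1 of both isoforms and 30 bases after the second start site. Of all 32851 windows, 16.3% held the core word and 2.61% the longer form. A Clock window held the core word at chr5:76303616-76303621, in intron 1 of both isoforms and 119 bases before an annotated start site at the edge of exon 2, and the other Clock windows and that of Npas2 held none of the words searched. The windows of these genes held no TGGGTCA (3.98% of all windows did), no E-box word (7.15%) and no D-box word (3.38%). The matches are shown on the strand of the gene with the motif in capitals.
Arntl: aaggcagaaagTAGGTCAgggacggaggt
Clock: gctttggcctcTGACCTgacagatgaca

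Genes of the rest of the loop were read in the same fit, with 1 transcript per gene. Of 13 E-box repressors and targets, 13 were tested and 12 passed, 11 with a fitted peak nearer dusk and 1, Cry1, nearer dawn. Over all 11621 genes tested, 11.3% passed, 617 nearer dawn and 693 nearer dusk, and the median fitted peak-to-trough difference was 0.44 on the log2 scale against 3.15 in this list. Nr1d2 (edgeR adjusted p 7.20e-08, peak 11.005 h) and Nr1d1 (2.66e-07, 8.54 h) led it, and Cry2 (0.0208) and Hlf (0.0614), a PAR bZIP factor, had the largest p. Of the 7 tested genes described with REV-ERB or ROR elements, the members among them, 7 passed and 6 peaked nearer dawn, Nfil3, a bZIP repressor, at 22.6 h (0.00238).

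Relatives and regulators of the dimer were counted against the same 11.3% of all genes and median of 0.44. Of 16 other bHLH-PAS family genes 7 were tested and 2 passed, Ncoa3 (edgeR adjusted p 0.0395, peak 20.0 h) and Epas1 (0.0413, 13.9 h), with a median peak-to-trough difference of 0.49. The hypoxia factor Hif1a (0.395) and the coactivator Ncoa1 (0.945) did not pass. Of the coactivators, modifiers and turnover factors of CLOCK and BMAL1, 31 were tested and 7 passed, all with a peak nearer dusk, and the median was 0.39. Usp2, a deubiquitinase, led with a peak at 13.5 h and a difference of 4.09 (2.34e-04), followed by Rack1 (0.00428, 17.3 h). The deacetylase gene Sirt1 (0.989) and the casein kinase subunit Csnk2a2 (0.986) were furthest from passing.

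The genes most like each member were ranked by Pearson correlation of log2 CPM over the 14 libraries, among 9592 genes with a mean of at least 50 reads. For Arntl NM_007489 they were Tubb2a (0.974), Rnd1 (0.963), Caprin1 (0.962) and Ddc (0.961), with peaks between 22.7 and 23.3 h. For Clock NM_001289826 they were Trim2 (0.933), Cldn1 (0.912), Pde9a (0.911), Tuba4a (0.906) and Gldc (0.903). For Npas2 they were Tnfaip2 (0.965), Elovl3 (0.965), Clpx (0.962), Dhrs3 (0.962) and Coq8a (0.961), with peaks between 0.347 and 1.32 h. The lists of the other isoforms held the same genes in another order. The members were less like each other, with 0.823 between Arntl NM_007489 and Clock NM_001289826, 0.798 between that Arntl transcript and Npas2, and 0.771 between Clock NM_001289826 and Npas2. Of 3 E-box targets set beside them, Dbp had -0.94, -0.72 and -0.87 in the order Arntl, Clock, Npas2, Nr1d1 had -0.70, -0.32 and -0.36, and Per2 had -0.23, -0.34 and -0.59. All libraries share the same time course, and these correlations are descriptions.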

How the data were processed

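The authors deposited raw counts of reads per RefSeq transcript and region (5′UTR, CDS, 3′UTR) for each of 14 libraries. Per the labels and methods, reads matching rRNA (Bowtie2 2.1.0.0) were removed, the rest were mapped to mm10, and exact matches were extracted with SAMtools 0.1.19.0. A second run of CT16 replicate 2 is placed by its label in the same file as the first, which the files alone do not show. The treatment of reads common to several isoforms is not given in the sources used here. Symbols came from the RefSeq table (GRCm38.p6) for 27840 of 28167 transcripts.

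Transcripts averaging 10 or more counts were tested in edgeR 4.0.16 (TMM, quasi-likelihood F test, cosine and sine of 24 h, or 7 times as groups), with Benjamini-Hochberg adjustment and a threshold of 0.05. Limma 3.58.1 tested 5′UTR to CDS ratios (0.5 reads added), DESeq2 1.42.0 was an alternative, JTK_CYCLE was rewritten with lags every 2 h, and permutation tests used 100000 shuffles. All were tested on simulated data. Levels used lengths in the files, which differ from the annotation by up to 1 nt per exon. Named genes are the members, up to 4 per list (smallest and largest adjusted p), and the 5 most like each member. Some results that this rule selects are not reported here. The members and lists were chosen with earlier results of these data known. Replicate numbers did not pair the libraries. The methods name 2 mice per time. In the fit of 7 times as groups, the p-values rest on the spread between the libraries of a time. In the cosine fits they rest also on how far the times depart from a cosine.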

Additional observations from a re-analysis of the deposited data

How the results depend on the processing

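Arntl and Npas2 kept their edgeR rhythm call and a peak within 6 h of that given under each alternative of the whole-transcript test in which they were tested. Npas2 was below the minimum mean of 100 counts and was not tested there. Clock did not keep to its side of the threshold. NM_007715 (0.0504) passed with library totals (0.0328), totals without the Mup genes (0.0346), upper quartile scaling (0.0448) and a minimum of 100 counts (0.0389). It also passed with the prefix of the description label as a block (0.0491), CT16 replicate 2 halved (0.0488), no CT0 (0.0430) and DESeq2 (0.0158). NM_001289826 (0.0407) did not with CDS reads (0.159) or without CT24 (0.0854). In JTK, Clock lost its call by q (0.184 and 0.150), and NM_007715 lost its call by P on the TMM scale (0.193). The cause was not tested.

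Counts of calls moved with 1 transcript per gene (1245 against 1947, as fewer were tested), by JTK q (255 against 3048) and with library totals, to 62 from 114 in the 5′UTR, to 3675 from 1340 for dawn against dusk and to 1 from 0 for CT24 against CT0. For the 6 steps of 4 h in order, library totals gave 172, 76, 85, 754, 101 and 3 calls in place of 63, 127, 296, 249, 63 and 0. With the replicate number as a block, the CT24 to CT0, CT16 to CT20 and CT20 to CT24 counts were 6, 112 and 14, and Npas2 passed from CT16 to CT20 (0.0406). The block left Clock NM_007715 at 0.0601 and changed no other call of a member. For the single regions, the block was added after seeing the data. Of 21 pairs of times, same-numbered libraries deviated together with r over 0.1 in 3 (median 0.030).

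Leaving out each library in turn gave these ranges. Clock NM_007715 lay at 0.0222 to 0.167 and NM_001289826 at 0.0172 to 0.141, and Arntl NM_007489 in the 5′UTR at 0.0152 to 0.0621. The counts ran from 75 (without CT12 replicate 1) to 140 in the 5′UTR, 566 (without CT12 replicate 1) to 1547 (without CT12 replicate 2) for dawn to dusk, 0 to 2 for CT24 to CT0 and, for the steps of 4 h in order, from 6 to 86, 43 to 134, 55 to 550, 66 to 468, 38 to 173 and 0 to 27. A time left with 1 library was assumed to vary like the others. Depth limits Npas2, with 726 reads in all.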
